A study of Mus musculus with 39 samples.

Results

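Elastic fibre genes were followed through a C1q experiment on cultured mouse lung fibroblasts. They were 10 genes, taken by symbol from the count table: Eln, Fbn1, Mfap4, Mfap5, Fbln5, Efemp2, Fbln1, Fbln2, Lox and Loxl1. They are 10 of the 30012 genes in the table, and all 10 were among the 14419 genes with enough counts to be tested. The fibroblasts were isolated from lungs of wild-type C57BL/6 mice. Magnetic beads had first taken out blood cells (CD45 and Ter119), endothelial cells (CD31), epithelial cells (EpCAM) and mural cells (CD146), and what was left was cultured. They were grown in serum, passaged into multiwell plates, kept without serum for 24 h and given C1q, a plasma protein that starts the classical complement cascade. The 12 treated groups received 1, 10 or 100 µg/ml C1q for 2, 24, 48 or 72 h, and 1 group at 0 h was untreated, with 3 libraries in each group and 39 in all. All groups share the strain, the depletion and the serum starvation. The design holds no untreated group at the later times and no group given the C1q buffer alone, so C1q and time in culture cannot be told apart against untreated cells, nor C1q and other solutes of its stock between doses. Whether the 3 libraries of a group are separate cultures or mice is not stated in the labels, so the p-values rest on a spread that may be technical only.

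Elastic fibres give the lung its recoil. Fibroblasts secrete tropoelastin, the soluble product of Eln, which is laid down on a scaffold of microfibrils built from fibrillins such as Fbn1. Mfap4 and Mfap5 encode glycoproteins that associate with microfibrils and elastin. Fibulins guide assembly: Fbln5 and Efemp2 encode fibulins that bring tropoelastin together with the cross-linking enzymes and are needed to form fibres in mice, while Fbln1 and Fbln2 encode fibulins found along elastic fibres and basement membranes. Lox and Loxl1 encode lysyl oxidases, which oxidise lysines of tropoelastin so that it becomes cross-linked and insoluble.

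Library totals ran from 1806106 to 3012518 counts, and the elastic fibre genes together took 0.292% to 0.574% of a library. The lowest count of a member in a library was 118, for Fbln1, which gives a counting error of 9.21% (CV). Levels are given in CPM, that is counts divided by library size after TMM correction, which balances libraries over most genes. Because transcripts were counted from their 5' ends, levels are compared between groups and not between genes. On the first principal component of all tested genes, which held 40.3% of the variance, the third of the 1 µg/ml libraries at 24 h scored 12.5, apart from the first and second at -0.51 and 0.55. Libraries at 10 and 100 µg/ml and 24 h scored 4.77 to 11.4. They share another column spelling with the library that stood apart, which the rest of its group lack. The first and second 1 µg/ml libraries at 48 h also have that spelling. They scored 16.8 and 14.2, against 17.4 for the third, which lacks it. Fbn1 was 516 CPM in the library that stood apart, against 338 and 312 CPM in the rest of its group.

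The members are spread over the genome. In GRCm38 with the GENCODE M21 annotation, Eln lies at chr5:134702593-134747323 on the minus strand, Fbn1 at chr2:125300594-125507993 on the minus strand, Mfap4 at chr11:61485431-61488900 on the plus strand and Mfap5 at chr6:122505845-122529290 on the plus strand. Fbln5 lies at chr12:101746565-101819055 on the minus strand, Efemp2 at chr19:5473954-5482517 on the plus strand, Fbln1 at chr15:85205949-85286535 on the plus strand and Fbln2 at chr6:91212455-91272540 on the plus strand. Lox lies at chr18:52516067-52529867 and Loxl1 at chr9:58287738-58313186, both on the minus strand. Genes annotated on the opposite strand overlap the 5' end of Eln (Gm30003) and Lox (AC161119.1) and the 3' end of Efemp2 (Mus81) and Mfap4 (Mapk7). Another, Gm9913, lies inside Fbn1 near its 5' end. How the counting treated strand is not given in the sources used here. Gm30003, Mus81 and Mapk7 averaged 10.6, 32.5 and 68.1 counts per library, and the other two have no row of their own in the table.

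The sequence around the start is shown for 3 fibulin genes, because their levels parted from each other with C1q dose. Each window is from RefSeq for GRCm38.p6, which had entries for 5 of the 10 members, and runs from 250 bases before an annotated start to 50 bases after it, 5' to 3' on the gene's strand. The windows are chr12:101819070-101819369 (minus) for Fbln5, chr15:85205758-85206057 (plus) for Fbln1 and chr6:91212514-91212813 (plus) for Fbln2. RefSeq has 2 windows each for Fbln5 and Fbln1, of which 1 is printed, and 1 for Fbln2. The printed Fbln5 window is the outer one and lies wholly upstream of the GENCODE M21 gene, while the other, chr12:101818435-101818734, lies inside it. The printed Fbln1 window is the inner one, and the other, chr15:85205699-85205998, overlaps it and is set on the GENCODE M21 start. Capitals mark matches to the letters of a GC box (GGGCGG, or CCGCCC on the other strand) or of a SMAD element (CAGACA, or TGTCTG on the other strand).

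Fbln5: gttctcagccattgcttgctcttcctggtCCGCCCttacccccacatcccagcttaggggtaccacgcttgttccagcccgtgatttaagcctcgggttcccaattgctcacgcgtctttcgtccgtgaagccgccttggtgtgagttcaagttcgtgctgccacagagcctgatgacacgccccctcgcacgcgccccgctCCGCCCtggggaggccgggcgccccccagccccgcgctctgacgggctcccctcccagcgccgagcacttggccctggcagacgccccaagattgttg

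Fbln1: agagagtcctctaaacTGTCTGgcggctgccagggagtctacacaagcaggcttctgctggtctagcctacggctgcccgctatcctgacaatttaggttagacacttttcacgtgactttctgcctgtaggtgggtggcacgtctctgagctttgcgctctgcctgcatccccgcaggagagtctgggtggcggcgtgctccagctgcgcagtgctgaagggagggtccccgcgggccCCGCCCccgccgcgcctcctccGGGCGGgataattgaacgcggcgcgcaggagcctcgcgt

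Fbln2: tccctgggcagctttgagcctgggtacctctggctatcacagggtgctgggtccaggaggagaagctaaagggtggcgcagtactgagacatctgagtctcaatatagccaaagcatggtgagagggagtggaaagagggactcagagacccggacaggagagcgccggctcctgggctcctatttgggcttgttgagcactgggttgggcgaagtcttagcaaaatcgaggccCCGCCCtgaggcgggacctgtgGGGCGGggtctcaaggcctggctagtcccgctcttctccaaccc

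The windows printed were chosen with their matches known, and the motif counts depend on that choice. Each of these 3 windows holds 2 GC boxes, letters that stand in 35.7% of the 32851 windows of the same length. The other Fbln5 and Fbln1 windows hold 0 GC boxes. A match to CAGACA, which stands in 21% of windows, is found 1 time in each Fbln1 window and 1 time in the other Fbln5 window. None of the 5 windows of these genes holds TATAAA, which stands in 13.6% of windows, nor the AP-1 letters TGACTCA or TGAGTCA, which stand in 5.2%. Such matches describe the letters and do not show that a factor binds.

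The levels of the 10 genes moved over very unequal ranges. The mean of the highest group was 7.80 times that of the lowest for Mfap4, 3.97 times for Eln, 3.01 times for Fbln1 and 2.13 times for Mfap5. It was 1.91 times for Fbln5 and 1.62 times for Fbln2. For Lox, Loxl1, Efemp2 and Fbn1 the ratio lay between 1.33 and 1.44. Ordered by mean, Mfap4 levels followed time: the 3 groups at 72 h came first, then those at 48 h, 24 h and 2 h, with untreated cells last. Neighbours in that order did not overlap between 72 h and 48 h, between 10 and 100 µg/ml at 48 h, between 48 h and 24 h, between 10 and 100 µg/ml at 24 h, or between 24 h and 2 h. The other neighbours overlapped. Eln was ordered by time and by dose, with the 4 groups of 1 and 10 µg/ml at 48 and 72 h on top, overlapping each other. The Eln groups at 1 and 10 µg/ml and 24 h came next. The 100 µg/ml groups at 72 and 48 h had lower means but overlapped with 10 µg/ml at 24 h. The group at 100 µg/ml and 24 h lay below all of these without overlap. Fbln5 had a different order, with 100 µg/ml at 72 h highest, apart from the next group, and 1 µg/ml at 24 h lowest. For Lox, Loxl1, Efemp2 and Fbn1 no 2 neighbouring groups were apart.

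**Figure D1:**
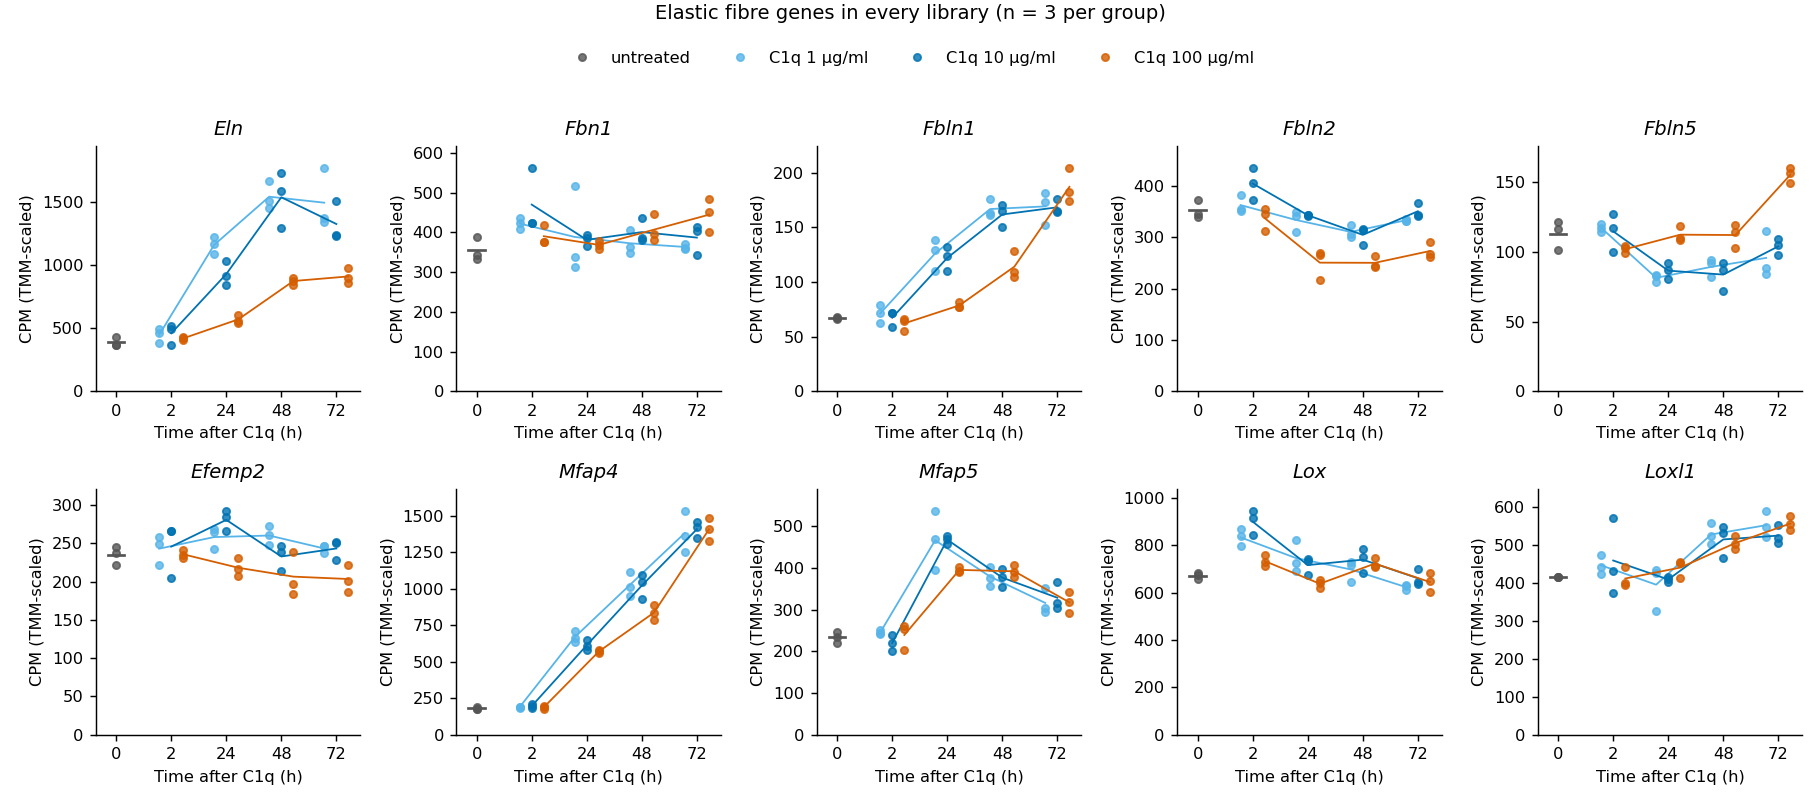
TMM-scaled CPM (linear axis from 0) of the 10 elastic fibre genes in every library against time after C1q in hours, with the untreated group at 0 h. Points are libraries (n = 3 per group), lines join group means and colours give the C1q dose. Mfap4, Eln and Fbln1 climb with time, Eln stays lower at 100 µg/ml after 2 h, and Fbln5 at 72 h is highest at 100 µg/ml.

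Elastin transcript was higher in all 9 groups at 24 h and later than in untreated cells. Mfap4 rose further and kept rising to 72 h, Fbln1 rose in 8 of those 9 groups, and Mfap5 rose most at 24 h at 1 and 10 µg/ml. Lox, by contrast, was above untreated cells in the test only at 2 h, at 1 and 10 µg/ml, and Loxl1 rose from 48 h on. Fbln5 and Fbln2 were the genes that fell, Fbln5 at the lower doses and Fbln2 mainly at 100 µg/ml.

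All 12 comparisons with untreated cells share the same 3 untreated libraries, so their values stand side by side and are not independent. A gene was called where edgeR's quasi-likelihood test gave a Benjamini-Hochberg adjusted p under 0.05 over all 14419 genes. At 2 h, 1 of 10 members was called at 1 µg/ml, 2 at 10 µg/ml and 0 at 100 µg/ml, against 6.15%, 12.7% and 5.16% of all genes. For 100 µg/ml and 2 h, 0 members had an unadjusted p under 0.05 and DESeq2 called 0. At 24 h, 5, 6 and 4 members were called at 1, 10 and 100 µg/ml, against 25.2%, 27.8% and 36.7% of all genes. At 48 h, the counts were 6, 7 and 6 members, against 33.1%, 34.5% and 40% of all genes. At 72 h, they were 5, 5 and 8 members, against 38.2%, 39.9% and 45.8% of all genes. At 2 h the members' share was close to that of all genes at each dose. The same held at 24 h and 100 µg/ml, and at 72 h and 1 or 10 µg/ml. Those counts are thus not a result about the members. The median difference over the 10 members at 72 h was 0.23, 0.23 and 0.43 on the log2 scale at 1, 10 and 100 µg/ml, against 0.015, 0.019 and 0.051 over all genes.

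For Eln, the libraries at 1 µg/ml and 72 h held 1771, 1339 and 1375 CPM, against 431, 368 and 366 CPM in untreated cells. At 10 µg/ml and 72 h they held 1232, 1241 and 1505 CPM, and at 100 µg/ml 978, 896 and 857 CPM. Every treated library at 72 h lay above every untreated one, and the 100 µg/ml libraries lay below those of both lower doses. The log2 differences from untreated cells were 1.94, 1.77 and 1.23 at 1, 10 and 100 µg/ml, each with an SE of 0.12 (the highest adjusted p was 2.44e-12, edgeR). At 48 h they were 1.99, 1.98 and 1.17. At 24 h they were 1.58, 1.26 and 0.55, so that elastin at 100 µg/ml reached at 48 h about the difference it had at 72 h.

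Mfap4, the microfibril-associated glycoprotein, changed most. Its libraries held 1483, 1329 and 1407 CPM at 100 µg/ml and 72 h, against 193, 174 and 175 CPM in untreated cells. The means at 72 h were 1381 ± 139 CPM at 1 µg/ml, 1408 ± 57.3 CPM at 10 µg/ml and 1406 ± 76.9 CPM at 100 µg/ml, against 180.5 ± 11.03 CPM in untreated cells (SD, n = 3 each). The 3 doses overlapped at 72 h and all lay far above untreated cells. The log2 differences at 72 h were 2.93, 2.96 and 2.96 at 1, 10 and 100 µg/ml, each with an SE of 0.09 (edgeR, highest adjusted p 3.62e-29). They were 1.89, 1.76 and 1.66 at 24 h and 2.504, 2.499 and 2.21 at 48 h.

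Fbln1 held 174, 183 and 205 CPM at 100 µg/ml and 72 h, against 66.1, 66.8 and 67.7 CPM in untreated cells. The groups did not overlap, and the log2 difference was 1.48 ± 0.11 (SE, edgeR adjusted p 4.67e-16). At 1 and 10 µg/ml Fbln1 had already risen by 24 h, with log2 differences of 0.92 and 0.87. At 100 µg/ml and 24 h its 3 libraries, at 81.6, 77.5 and 77.0 CPM, also lay above untreated cells, but the difference of 0.23 did not pass the test. By 48 h the differences were 1.32, 1.27 and 0.77 at 1, 10 and 100 µg/ml, all called.

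Mfap5 at 1 and 10 µg/ml stood highest at 24 h and lower at the later times. At 100 µg/ml it averaged 395 CPM at 24 h and 392 CPM at 48 h, with overlapping libraries, and 317 CPM at 72 h. Its mean at 24 h was 466 ± 70.8 CPM at 1 µg/ml, 468 ± 10.2 CPM at 10 µg/ml and 395 ± 6.62 CPM at 100 µg/ml, against 233 ± 12.8 CPM in untreated cells (SD, n = 3 each). All 9 treated libraries at 24 h lay above the untreated ones. The log2 differences were 1.00, 1.00 and 0.76 at 24 h, 0.70, 0.69 and 0.75 at 48 h, and 0.44, 0.49 and 0.45 at 72 h, and all 9 were called.

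The microfibril backbone changed little. Fbn1 ranged from 312 to 563 CPM over the 39 libraries and was called in 2 of the 12 comparisons. At 100 µg/ml and 72 h it held 451, 401 and 483 CPM, against 388, 334 and 342 CPM in untreated cells, a log2 difference of 0.32 ± 0.12 (SE, edgeR adjusted p 0.0209). That call was lost on leaving out any 1 of 4 libraries, the first or the third at 100 µg/ml and the second or the third untreated one, with adjusted p between 0.0731 and 0.117. At 10 µg/ml and 2 h it held 423, 563 and 425 CPM, and that call (log2 difference 0.405 ± 0.12, adjusted p 0.0146) was lost without the second library at 10 µg/ml or without the second or the third untreated one (adjusted p 0.0723 to 0.21).

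Among the fibulins needed for assembly, Fbln5 fell at the lower doses. Fbln5 held 78.4, 82.5 and 83.0 CPM at 1 µg/ml and 24 h, and 80.8, 91.6 and 87.0 CPM at 10 µg/ml and 24 h, against 121, 116 and 101 CPM in untreated cells. All 6 of these treated libraries were below the untreated ones, with log2 differences of -0.47 ± 0.105 and -0.38 ± 0.105 (SE, edgeR adjusted p 0.000549 and 0.00453). At 48 h the differences were -0.34 and -0.435, of which the one at 1 µg/ml was lost without the first library of that group (adjusted p 0.0637). At 100 µg/ml the Fbln5 differences were -0.01 at 24 h and -0.01 at 48 h. Fbln5 rose at 100 µg/ml and 72 h, to 149, 160 and 157 CPM, a log2 difference of 0.46 ± 0.10 (adjusted p 0.000201), with each of the 3 libraries above every untreated one.

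Efemp2, the fibulin that binds both tropoelastin and lysyl oxidase, stayed between 183 and 292 CPM in all libraries. Its single call against untreated cells was at 10 µg/ml and 24 h, with a log2 difference of 0.25 ± 0.09 (edgeR adjusted p 0.0369). That call was lost on leaving out any 1 of the 6 libraries compared (adjusted p 0.0565 to 0.198) and with DESeq2 (adjusted p 0.0522). Fbln2 fell at 100 µg/ml: it held 217, 266 and 270 CPM at 24 h and 261, 268 and 292 CPM at 72 h, against 346, 339 and 373 CPM in untreated cells. Its libraries at 100 µg/ml did not overlap with the untreated ones at either time, and the log2 differences were -0.49 at 24 h, -0.495 at 48 h and -0.37 at 72 h, each with an SE of 0.08 (highest adjusted p 0.000317). At 1 and 10 µg/ml the Fbln2 differences lay between -0.21 and 0.20, and the one at 10 µg/ml and 48 h was called (-0.21, adjusted p 0.0434). That call was lost without the first library at 10 µg/ml or the third untreated one (adjusted p 0.0851 to 0.187).

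The 2 cross-linking enzymes moved at different times. Lox held 866, 795 and 837 CPM at 1 µg/ml and 2 h, and 841, 942 and 913 CPM at 10 µg/ml and 2 h, against 674, 657 and 682 CPM in untreated cells. All 6 libraries lay above the untreated ones, with log2 differences of 0.31 ± 0.08 and 0.42 ± 0.08 (SE, edgeR adjusted p 0.00654 and 8.51e-05). The call at 1 µg/ml was lost without the first library of that group (adjusted p 0.0577). Lox at 100 µg/ml and 2 h held 710, 759 and 729 CPM, a difference of 0.13 that did not pass the test. From 24 h on, the 9 Lox differences lay between -0.11 and 0.15 and none was called.

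Loxl1 held 539, 576 and 555 CPM at 100 µg/ml and 72 h, against 415 CPM in each of the 3 untreated libraries. The treated libraries were all higher, with a log2 difference of 0.42 ± 0.10 (SE, edgeR adjusted p 0.000571). The differences at 72 h were 0.41 and 0.34 at 1 and 10 µg/ml, and those at 48 h were 0.35, 0.31 and 0.28 at 1, 10 and 100 µg/ml, all called. At 48 h the call at 10 µg/ml was lost without the second or the third of its libraries or any untreated one (adjusted p 0.0777 to 0.147), and that at 100 µg/ml without the third of its libraries or any untreated one (adjusted p 0.0802 to 0.0826).

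**Figure D2:**
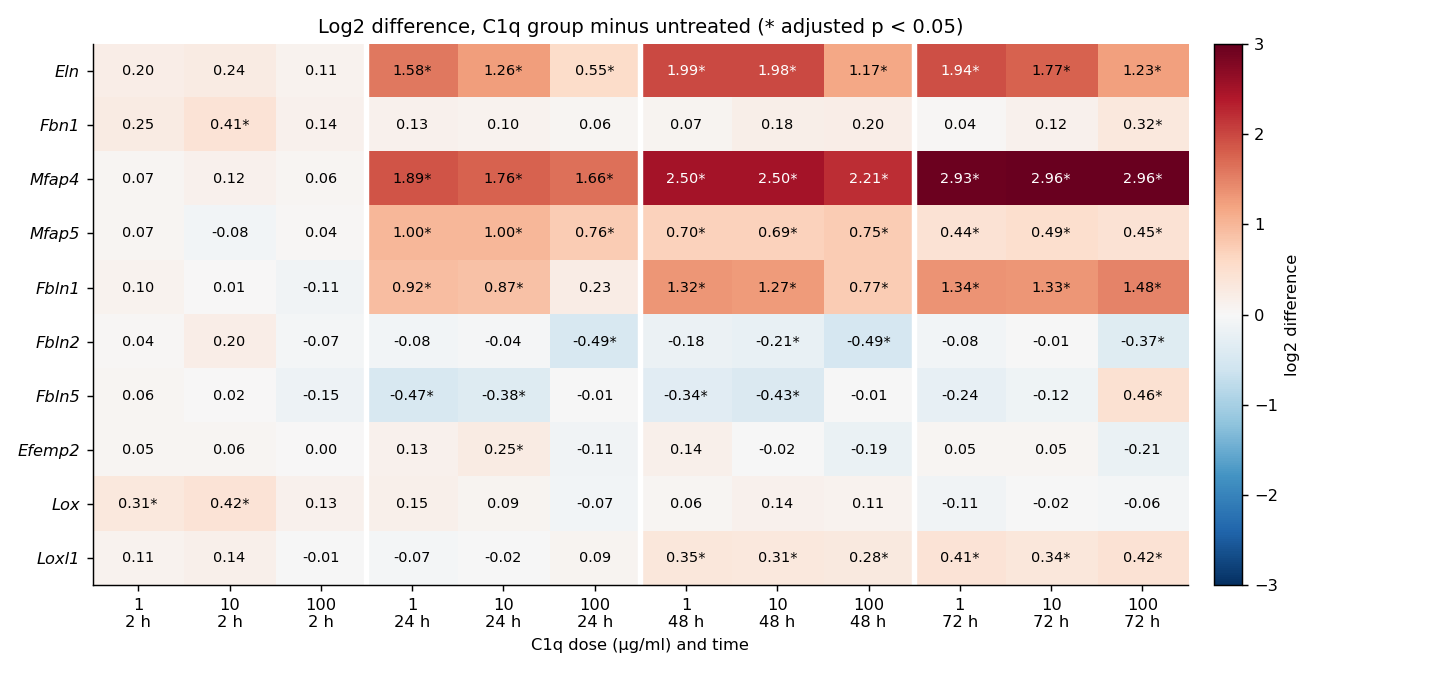
Log2 difference of each C1q group from untreated cells for the 10 elastic fibre genes (rows) in the 12 dose and time groups (columns), with the value in each cell, on a colour scale centred at 0. A star marks an edgeR adjusted p under 0.05. The strongest cells are those of Mfap4, up to 2.96, and Eln, up to 1.99, while Fbln2 and Fbln5 hold the negative called cells.

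Markers of cell types moved beside these genes, and their part in the members' differences was not tested. In bulk RNA, fewer cells of a type and less RNA per cell cannot be told apart. At 100 µg/ml and 72 h against untreated cells, 22.5% of all genes were higher and 23.3% lower. The summed level of 9 pan-fibroblast genes was 10020 CPM at 100 µg/ml and 72 h, against 7537 CPM in untreated cells, with 5 higher and 2 lower. That of 10 adventitial fibroblast genes was 2001 CPM, against 459 CPM, with 6 higher and 1 lower, and that of 10 alveolar fibroblast genes was 3294 CPM, against 1784 CPM, with 8 of 9 tested higher and 0 lower. The 11 genes of myofibroblasts and smooth muscle summed to 1704 CPM at 100 µg/ml and 72 h, against 2596 CPM in untreated cells, with 1 higher and 6 lower.

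Other cell types were read in the same way, and all but mesothelial cells were targets of the depletion. The 14 macrophage and other myeloid genes summed to 1035 CPM at 100 µg/ml and 72 h, in libraries of 924 to 1117 CPM, against 287 CPM in untreated cells, in libraries of 275 to 297 CPM, with 12 higher and 0 lower. At 1 and 10 µg/ml and 72 h the myeloid sums were 1227 and 1421 CPM. The 10 epithelial genes summed to 107 CPM at 100 µg/ml and 72 h, against 591 CPM in untreated cells, with 0 higher and 9 lower, and Scgb1a1 was at 0 in those treated libraries. Pericyte genes summed to 139 CPM, against 155 CPM (2 higher, 2 lower), endothelial genes to 64.2 CPM, against 71.5 CPM (1 higher, 2 lower), and mesothelial genes to 456 CPM, against 390 CPM (3 higher, 2 lower). The pericyte and endothelial counts, of 8 tested genes each, were near the shares of all genes. At 1 and 10 µg/ml and 72 h, where Eln was above its level at 100 µg/ml, the mesothelial sums were 699 and 601 CPM. At each dose 4 genes were higher, Upk3b, Upk1b, Lrrn4 and Gpm6a, and 1 lower. In those comparisons 38.2% and 39.9% of all genes were called in either direction. The 6 lymphocyte genes had too few counts to be tested, with at most 0.93 CPM in a library at 100 µg/ml and 72 h and at most 0.53 CPM in an untreated one.

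Among treated cells, times were compared over the 3 doses together, with 9 libraries at each time. From 2 h to 24 h, 8 of 10 members were called, against 57.9% of all genes. Mfap4 was higher at 24 h than at 2 h by 1.68, Eln by 0.94, Mfap5 by 0.91 and Fbln1 by 0.67 on the log2 scale. The values of Eln and Fbln1 average over unlike doses. Mean Eln went from 420 to 571 CPM at 100 µg/ml, from 447 to 1160 CPM at 1 µg/ml and from 459 to 929 CPM at 10 µg/ml. Mean Fbln1 went from 62.2 to 78.7 CPM at 100 µg/ml, from 71.2 to 126 CPM at 1 µg/ml and from 67.4 to 122 CPM at 10 µg/ml. Fbn1, Fbln2, Fbln5 and Lox were lower at 24 h, with log2 differences of -0.17, -0.26, -0.26 and -0.23. For Fbln5 the doses went different ways: at 100 µg/ml it averaged 112 CPM at 24 h and 102 CPM at 2 h, with each 24 h library above each 2 h one. At 1 µg/ml it averaged 81.3 CPM at 24 h and 117 CPM at 2 h, and at 10 µg/ml 86.5 CPM at 24 h and 115 CPM at 2 h. The Fbn1 call was lost on leaving out any 1 of 4 libraries: the second of 10 µg/ml at 24 h, the second of 10 µg/ml at 2 h, and the first or second of 1 µg/ml at 24 h (adjusted p 0.0515 to 0.0974).

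Between 48 h and 24 h, 5 members were called, against 24.9% of all genes. Mfap4, Eln, Fbln1 and Loxl1 were higher at 48 h, with log2 differences of 0.635, 0.58, 0.45 and 0.315, and Mfap5 was lower, with -0.21. For Mfap5 the mean went from 466 to 379 CPM at 1 µg/ml and from 468 to 377 CPM at 10 µg/ml. At 100 µg/ml it went from 395 to 392 CPM. Between 72 h and 48 h, 6 members were called, against 16.7% of all genes. Mfap4 was higher again at 72 h, with 1398 CPM on average against 961 CPM at 48 h, and so were Fbln5 and Fbln1, with log2 differences of 0.30 and 0.26. For Fbln1 the means at 72 h and 48 h were 187 and 114 CPM at 100 µg/ml, but 169 and 167 CPM at 1 µg/ml and 168.5 and 162 CPM at 10 µg/ml, where the libraries of both times overlapped. The small Fbln2 difference of 0.14 was also called (adjusted p 0.0324) and was lost on leaving out any 1 of 8 libraries (adjusted p 0.0508 to 0.0841). At 72 h these were the third of 100 µg/ml, the third of 10 µg/ml and the first of 1 µg/ml, and at 48 h the second and the third of 100 µg/ml, the first of 10 µg/ml and the first and second of 1 µg/ml. Lox and Mfap5 were lower at 72 h, with differences of -0.16 and -0.255. For Eln, the mean over doses was 1244 CPM at 72 h and 1318 CPM at 48 h, a difference of -0.07 ± 0.06 that did not pass the test.

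Over the whole span, 7 members were called between 72 h and 2 h, against 65.1% of all genes, so the count does not stand apart. Mfap4 was higher at 72 h by 2.87, Eln by 1.46, Fbln1 by 1.385, Mfap5 by 0.45 and Loxl1 by 0.31 on the log2 scale. For Mfap4, Eln, Fbln1 and Mfap5 all 9 libraries at 72 h lay above all 9 at 2 h. Lox was lower at 72 h by the same measure, with 643 CPM on average against 821 CPM at 2 h and a log2 difference of -0.35 ± 0.04 (SE, edgeR adjusted p 3.28e-09), and all 9 libraries at 72 h lay below all 9 at 2 h. Fbln2 was lower as well (-0.21), with overlap.

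The comparison of 100 µg/ml with the lower doses holds time in culture fixed. At 24 h most elastic fibre genes were lower at 100 µg/ml than at 1 and 10 µg/ml: elastin most, then Fbln1 and Fbln2, with smaller differences for Efemp2, Mfap5 and Lox. Fbln5 went the other way and was higher at 100 µg/ml at 24, 48 and 72 h. Elastin stayed lower at 100 µg/ml through 72 h, whereas the Fbln1 difference was gone from the test at 72 h. In this comparison 100 µg/ml was set against the mean of the 1 and 10 µg/ml groups of the same time.

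At 24 h, 7 of 10 members were called, 6 lower and 1 higher at 100 µg/ml, against 14.5% of all genes, of which 8.79% were lower and 5.74% higher. The median difference of the 10 members was -0.22 on the log2 scale, against 0.028 over all genes. At 48 h, 6 members were called, 5 lower and 1 higher, against 13.9% of all genes, with 8.43% lower and 5.46% higher. At 72 h, 4 members were called, 3 lower and 1 higher, against 14.9% of all genes, with 8.3% lower and 6.6% higher. At 2 h, 1 member was called, Lox, against 4.13% of all genes, so that count does not stand apart.

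Eln at 24 h held 545, 609 and 558 CPM at 100 µg/ml, against 1091, 1169 and 1221 CPM at 1 µg/ml and 912, 843 and 1033 CPM at 10 µg/ml. Every library at 100 µg/ml lay below every library of the lower doses, and the log2 difference was -0.86 ± 0.10 (SE, edgeR adjusted p 1.78e-08). At 48 h Eln held 845, 900.3 and 877 CPM at 100 µg/ml, against 1665, 1512 and 1451 CPM at 1 µg/ml and 1296, 1588 and 1730 CPM at 10 µg/ml. The doses were apart again, with a difference of -0.82 ± 0.10 (adjusted p 5.3e-08). At 72 h the difference was -0.63 ± 0.10 (adjusted p 5.97e-06), also without overlap.

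Fbln1 was lower at 100 µg/ml at 24 h, with 78.7 ± 2.505 CPM, against 126 ± 14.6 CPM at 1 µg/ml and 122 ± 10.9 CPM at 10 µg/ml (SD, n = 3 each). The log2 difference was -0.66 ± 0.09 (SE, edgeR adjusted p 7.35e-07) at 24 h and -0.53 ± 0.09 (adjusted p 3.71e-05) at 48 h, each without overlap of libraries. At 72 h it was 0.15 ± 0.08 (adjusted p 0.253), and the libraries overlapped. Its 95% interval at 72 h ran from -0.023 to 0.32.

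Fbln2 was lower at 100 µg/ml, with log2 differences of -0.43 ± 0.07 at 24 h, -0.30 ± 0.07 at 48 h and -0.32 ± 0.07 at 72 h (SE, edgeR adjusted p 2.25e-05, 0.00402 and 0.00131), without overlap at any of the 3 times. At 72 h it held 261, 268 and 292 CPM at 100 µg/ml, against 337, 332 and 331 CPM at 1 µg/ml and 341, 345 and 367 CPM at 10 µg/ml. The spread among the 3 libraries of 1 µg/ml at 72 h was only 2.93 CPM (SD).

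Fbln5 at 24 h held 119, 108 and 110 CPM at 100 µg/ml, all above the libraries at 1 and 10 µg/ml, which lay between 78.4 and 91.6 CPM. At 72 h it held 149, 160 and 157 CPM at 100 µg/ml, against 115, 88.3 and 84.0 CPM at 1 µg/ml and 97.9, 105 and 109 CPM at 10 µg/ml. The doses did not overlap at 24, 48 or 72 h, and the log2 differences were 0.42 ± 0.09, 0.375 ± 0.09 and 0.64 ± 0.09 (SE, edgeR adjusted p 0.000578, 0.00347 and 2.64e-07). The 3 fibulins whose start windows are printed above were thus lower (Fbln2), lower and then level in the test (Fbln1), and higher (Fbln5) at the same dose.

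The remaining calls between doses were small, and each was lost on leaving out 1 library or another. Efemp2 was lower at 100 µg/ml, with a log2 difference of -0.30 ± 0.08 at 24 h (edgeR adjusted p 0.00773), a call lost without the third library of 100 µg/ml (adjusted p 0.0691). Its differences of -0.255 at 48 h and at 72 h (adjusted p 0.0343 and 0.0291) were no firmer. The one at 48 h was lost without the second or the third library of 100 µg/ml, the second or the third of 10 µg/ml or the third of 1 µg/ml (adjusted p 0.0664 to 0.279). The one at 72 h was lost without the first or the third library of 100 µg/ml or the first or the third of 10 µg/ml (adjusted p 0.0516 to 0.201). Mfap5 was lower, with a log2 difference of -0.24 ± 0.08 at 24 h (adjusted p 0.0414), and leaving out any 1 of the 9 libraries ended that call (adjusted p 0.0598 to 0.135), save the third of 1 µg/ml and the first of 10 µg/ml. Mfap4 was lower, with a log2 difference of -0.29 ± 0.07 at 48 h (adjusted p 0.0037), a call lost without the first library of 100 µg/ml (adjusted p 0.0827), and its differences at 24 and 72 h were -0.17 and 0.01. Lox was lower at 100 µg/ml, with log2 differences of -0.24 ± 0.07 at 2 h (adjusted p 0.026) and -0.20 ± 0.07 at 24 h (adjusted p 0.0389). Leaving out any 1 of the 9 libraries ended the call at 2 h (adjusted p 0.0507 to 0.182), save the second of 1 µg/ml and the first of 10 µg/ml. It ended the call at 24 h (adjusted p 0.0701 to 0.155), save the first and second of 1 µg/ml and the first of 10 µg/ml. Fbn1 and Loxl1 were called between these doses at no time, with log2 differences between -0.19 and 0.245.

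Marker sums at 24 h stood beside these dose differences. The adventitial fibroblast sum was 785 CPM at 100 µg/ml, against 1459 CPM at 1 µg/ml and 1415 CPM at 10 µg/ml, with 0 genes higher and 5 lower. The myofibroblast and smooth muscle sum was 1921 CPM at 100 µg/ml, against 1479 CPM at 1 µg/ml and 1567 CPM at 10 µg/ml, with 3 higher and 0 lower. The myeloid sum was 420 ± 11.4 CPM at 100 µg/ml, against 407 ± 25.7 CPM at 1 µg/ml and 360 ± 34.2 CPM at 10 µg/ml (SD, n = 3 each), and the pan-fibroblast sum was 7439 CPM, against 9362 and 9315 CPM at 1 and 10 µg/ml, with 0 higher and 5 lower. At 48 and 72 h the sums stood otherwise. The myofibroblast and smooth muscle sum was lower at 100 µg/ml, with 1723 CPM at 48 h, against 2113 and 2413 CPM at 1 and 10 µg/ml, and 1704 CPM at 72 h, against 2666 and 2862 CPM, with 1 gene higher at each time and 5 and 6 lower. At 72 h the mesothelial sum was 456 CPM at 100 µg/ml, against 699 and 601 CPM at 1 and 10 µg/ml (0 higher, 4 lower), and the myeloid sum 1035 CPM, against 1227 and 1421 CPM (0 higher, 8 lower). The adventitial sum at 72 h was 2001 CPM, against 2229 and 2416 CPM (0 higher, 3 lower), and the pan-fibroblast sum 10020 CPM, against 9002 and 9008 CPM (2 higher, 1 lower). Over all genes, 5.74% were higher and 8.79% lower at 100 µg/ml than at the lower doses at 24 h. These shares were 5.46% and 8.43% at 48 h and 6.6% and 8.3% at 72 h. The part of the marker genes in the dose differences of the members was not tested.

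**Figure D3:**
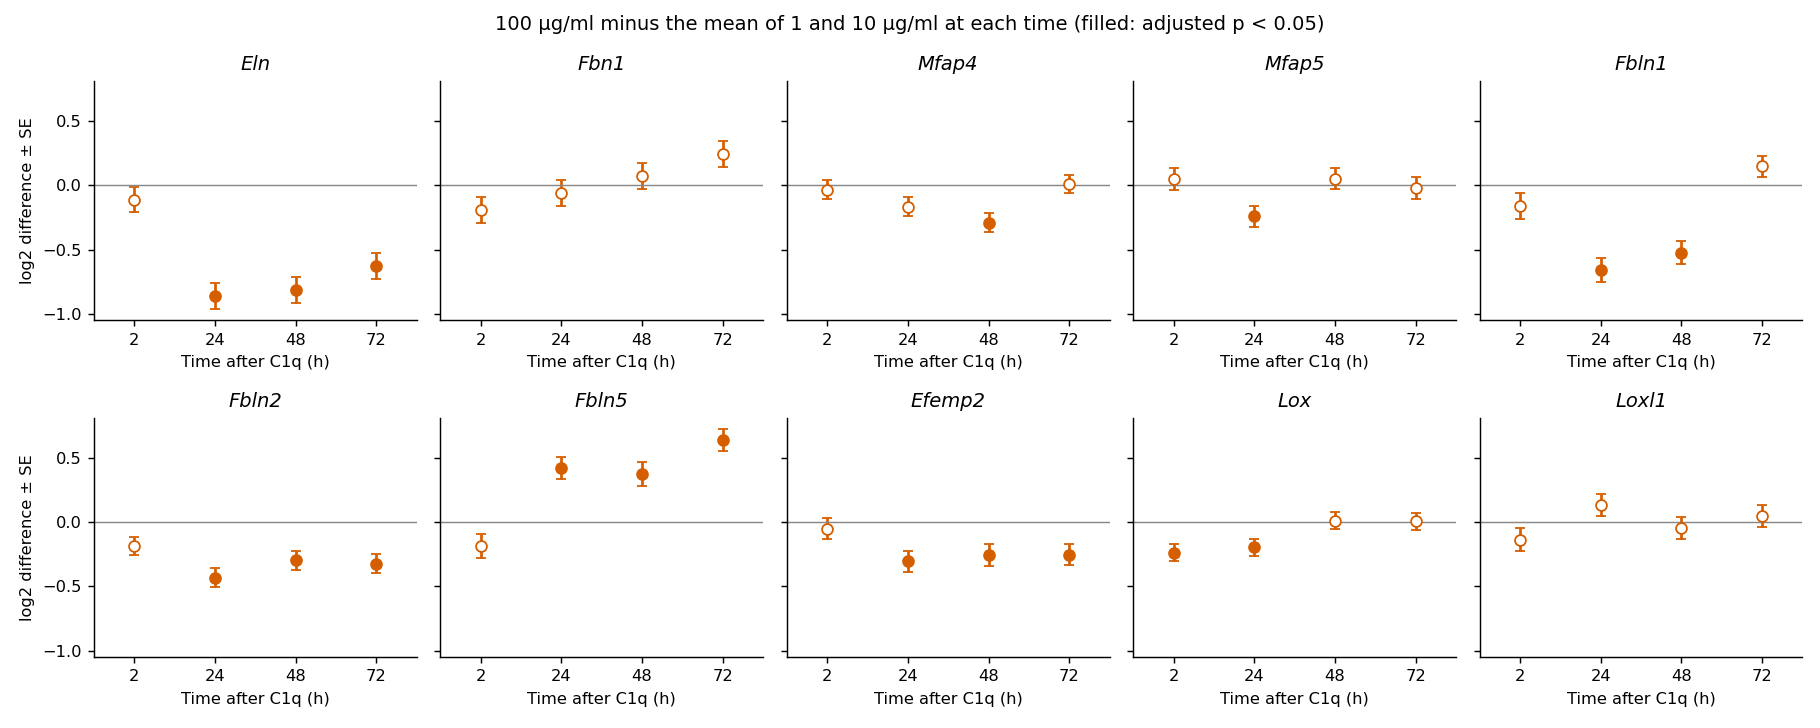
Log2 difference of 100 µg/ml from the mean of 1 and 10 µg/ml (y axis, with SE bars) against time after C1q in hours, for each of the 10 elastic fibre genes. Filled points have an edgeR adjusted p under 0.05. Eln lies at -0.86, -0.82 and -0.63 from 24 h on, Fbln1 runs from -0.66 at 24 h to 0.15 at 72 h, and Fbln5 lies above 0 from 24 h on.

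Between the lower doses, 10 against 1 µg/ml, 0 of 10 members were called at 2, 24, 48 or 72 h by edgeR or by DESeq2, against 0.839%, 0.0485%, 0.208% and 0% of all genes. The members' count stayed at 0 with any 1 library left out, while the 7 genes behind the share at 24 h became 168 without the third of the 1 µg/ml libraries. Of the 40 tests, 1 had an unadjusted p under 0.05, which was Eln at 24 h. Its libraries at 10 µg/ml all lay below those at 1 µg/ml, with a log2 difference of -0.32 ± 0.11 (SE, edgeR adjusted p 0.519) and a 95% interval of -0.55 to -0.09. Over the 40 tests the differences ran from -0.32 to 0.16, and the widest reach of their 95% intervals was -0.55 to 0.39.

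Whether the dose difference changed with time was tested on all 4 times together. By this F test 3 of 10 members were called, Fbln1 (edgeR adjusted p 1.51e-05), Fbln5 (4.73e-05) and Eln (0.000281), against 10.6% of all genes. Without the third of the 1 µg/ml libraries at 24 h, which stood apart on the first principal component, 5 members were called, Fbn1 (adjusted p 0.0395) and Mfap5 (0.0393) in addition. In the single contrast of 72 h minus 24 h, 1 member was called, Fbln1, against 2.36% of all genes. Its dose difference was 0.81 ± 0.12 higher at 72 h than at 24 h (log2, SE, edgeR adjusted p 2.56e-05). The corresponding values of Eln and Fbln5, 0.235 ± 0.14 and 0.22 ± 0.12, did not pass this test.

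Over the means of the 13 groups, the 3 genes with the widest range ran together, with a Pearson correlation of log2 CPM of 0.95 between Fbln1 and Mfap4, 0.94 between Eln and Fbln1 and 0.91 between Eln and Mfap4. The lowest correlations were those of Fbln5 with Efemp2, at -0.72, and of Mfap4 with Lox, at -0.615 (13 groups). These values describe groups that share a time course and a library preparation. Among 5445 other genes with a mean log2 CPM of at least 5, those most like Eln over the 13 groups were Mgp (0.99), Tshz2, Serpina3n, Rnase4 and Tmtc2 (0.98 each). Among those most like Mfap4 were the small proteoglycan gene Dcn (0.996), Itm2b, Man1a and Sparcl1 (each 0.99). Those most like Fbln5 were Nt5dc2 (0.925), Ece1, Etfdh, Slc27a4 and Itga8 (0.89). Those most like Lox were Ier3 (0.93), Bach1, Prrx1, Pakap and Cd44 (0.91).

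Genes that work with the members were read from 5 lists, whose calls are counted over the same fit. Of 18 tested partners of microfibrils and elastic fibres outside the members, the test found 11 higher and 1 lower at 100 µg/ml and 72 h than in untreated cells, with a median log2 difference of 0.88, against 0.051 over all genes. Over all genes, 22.5% were higher and 23.3% lower in that comparison. The largest were Adamtsl2 (3.54 ± 0.325), a microfibril-binding protein of the ADAMTS-like family, and Ltbp4 (2.20 ± 0.19), the latent TGF-β binding protein that takes part in elastin assembly, followed by Dcn (2.01 ± 0.09) and Ltbp3 (1.41 ± 0.12). At 24 h, 0 of the 18 partners were higher and 3 were lower at 100 µg/ml than at the lower doses: Mfap2 (-0.57 ± 0.10), a microfibril glycoprotein, Efemp1 (-0.45 ± 0.10) and Dcn (-0.27 ± 0.07). The shares of all genes in that comparison of doses were 5.74% higher and 8.79% lower.

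The next list held 10 tested genes for other lysyl oxidases, their processing and copper supply. At 100 µg/ml and 72 h, 3 of them were higher and 5 lower than in untreated cells, against 22.5% and 23.3% of all genes. The median of the 10 genes was -0.37. The lower ones included Tll1 (-1.67 ± 0.32), a procollagen proteinase of the tolloid family, Loxl4 (-1.55 ± 0.35) and Postn (-0.91 ± 0.13), which encodes a matricellular protein, while Pcolce2 was higher (0.82 ± 0.10). Between 100 µg/ml and the lower doses at 24 h their median difference was -0.08, against 0.028 over all genes. Another list held 9 genes for the elastin receptor and for integrins that bind elastic fibre proteins. At 100 µg/ml and 72 h against untreated cells, Itgb5 (2.02 ± 0.17) and Glb1 (0.45 ± 0.14) were higher. Itga5 (-1.18 ± 0.125) and Itgb1 (-0.53 ± 0.08) were lower, and the median of the 9 was 0.11. These counts, 2 higher and 2 lower, were near the shares of all genes, 22.5% and 23.3%, and are not a result about the list. Itgb5 and Itgb3 were also higher at 100 µg/ml than at the lower doses at 24 h (0.73 ± 0.13 and 0.82 ± 0.20), and Ctsa was lower (-0.36 ± 0.09).

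A further list held 9 tested genes for enzymes that can degrade elastin. At 100 µg/ml and 72 h, 7 of them were higher and 1 lower than in untreated cells, against 22.5% and 23.3% of all genes. The median of the 9 was 0.72. The higher ones included the gelatinases Mmp9 (2.38 ± 0.63) and Mmp2 (1.67 ± 0.11), Prtn3 (1.30 ± 0.47), a serine protease, and the cathepsin gene Ctsk (1.22 ± 0.13). Mmp9 and Prtn3 were near the floor, at 3.31 and 5.58 CPM, against 0.59 and 2.21 CPM in untreated cells. Mmp9 had 197 counts over all 39 libraries. Mmp2 held 275 CPM, against 86.0 CPM in untreated cells, and Ctsk 153.5 CPM, against 65.9 CPM. At 24 h, 1 enzyme gene was higher and 4 lower at 100 µg/ml than at the lower doses, against 5.74% and 8.79% of all genes. Mmp9 was higher (1.76 ± 0.45), and Mmp14 (-0.435 ± 0.07) and Mmp2 (-0.33 ± 0.09) were among the lower. Inhibitors of these enzymes made up 7 tested genes. At 100 µg/ml and 72 h, 3 of them were higher and 2 lower than in untreated cells, against 22.5% and 23.3% of all genes. The median of the 7 was 0.27, with Timp2 higher (1.62 ± 0.10) and Slpi lower (-0.89 ± 0.16). Timp1 was lower at 100 µg/ml and 72 h than in untreated cells (-0.29 ± 0.10) and lower at 100 µg/ml than at the lower doses at 24 h (-1.065 ± 0.09). In that comparison of doses 0 of the 7 inhibitors were higher and 4 lower, against 5.74% and 8.79% of all genes.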

How the data were processed

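Poly(A) RNA was sequenced from 5' ends on a NovaSeq, per the labels' protocols. The submitters' processing notes name cutadapt 2.1.0, Bowtie2 2.4.2 and the GRCm38 build. How reads were assigned to genes, and how strand, multiply matching reads and molecular identifiers were handled, is not given in the sources used here. The authors deposited 1 table of raw counts for 30012 genes in 39 columns, all used. Columns were matched to samples by the title and its serial number, and for 9 columns with another spelling by that number alone.

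Counts were fitted with edgeR 4.0.16 (R 4.3.3, quasi-likelihood test, default filter, TMM scaling) over all 39 libraries with a mean per group, which left 26 residual degrees of freedom. Of 26 comparisons, 12 set a C1q group against untreated cells, 8 set doses against each other within a time, 4 set times against each other over doses, and 2 asked whether the dose difference changed with time. Benjamini-Hochberg adjustment ran over 14419 genes, with a threshold of 0.05. Correlations used log2 CPM with a prior count of 2. All 10 members are named. Other genes are named by size among the called genes of each list (up to 4 against untreated cells, up to 3 between doses), or as the 5 most like a member, of which 1 is not reported here. The members and the 15 gene lists were chosen with earlier results of these data known.

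Replicate pairs were compared by chi-square over genes with at least 20 counts. Per degree of freedom it gave 1.31 to 8.48, so no pair looked like 1 library deposited again. On simulated counts for 100 µg/ml at 72 h against untreated cells (14098 genes), the test called 42% of genes given a 1.5-fold change, 88% at 2-fold and 100% at 4-fold. Only 50 genes were changed at each fold, drawn from genes averaging at least 20 counts. In the data 45.8% of all genes were called in that comparison, which makes the adjustment less strict. The simulated shares are thus no estimate of power for the members. Alternatives were DESeq2 1.42.0, RLE scaling, no filter, only the libraries compared, counts without LOC118568312 (6.1% to 14.1% of a library), each library left out, and, added after seeing the file header, leaving out the 9 columns. Figures used matplotlib 3.10.9 under Python 3.11.15.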

Additional observations from a re-analysis of the deposited data

Results flagged for a closer look

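The difference between 100 µg/ml and the lower doses was not the same at all 4 times for 3 elastic fibre genes, by the test of that difference over time. For Fbln1 the adjusted p was 1.51e-05 (edgeR), and the dose difference was -0.66 at 24 h and 0.15 at 72 h on the log2 scale. For Fbln5 the adjusted p was 4.73e-05, with -0.19 at 2 h and 0.64 at 72 h. For Eln the adjusted p was 0.000281, with -0.11 at 2 h and -0.86 at 24 h. The single contrast of 72 h minus 24 h also picked out Fbln1, with a log2 value of 0.81 (0.808 to 3 decimals).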

How the results depend on the processing

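Of 260 single values per alternative, RLE scaling changed the call of 0, DESeq2 of 1, leaving out LOC118568312 of 2, no filter of 6 and only the libraries compared of 9. Leaving out the 9 columns removed the 10 and 100 µg/ml groups at 24 h, so no comparison that uses them could be given. Missing are thus 10 and 100 µg/ml at 24 h against untreated cells, the dose comparisons at 24 h, and 24 h against 2 h and 48 h. Both tests of the dose difference over time are missing too. This alternative cannot check any of these. It changed 6 of the 180 values it could give, some of which rest on 1 library of 1 µg/ml at 48 h. No called value changed direction under any alternative that could give it. Of 103 member calls, 86 were kept in every fit with 1 library left out. The single member called at 100 against 1 and 10 µg/ml at 2 h became 0 with no filter, with only the libraries compared and without LOC118568312. With 1 library left out, member counts ranged from 0 to 1 in that comparison, from 4 to 7 between the same doses at 24 h (lowest without the third library of 100 µg/ml), from 0 to 1 for 1 µg/ml at 2 h, from 1 to 2 for 10 µg/ml at 2 h, and from 3 to 5 for the dose difference over time. Counts over all genes were less steady between the lower doses: 121, 7 and 30 genes at 2, 24 and 48 h became 50, 1 and 0 with only the libraries compared, and 7 and 30 became 81 and 78 with no filter. At 72 h, 0 became 7 with no filter, and at 48 h 30 became 16 with DESeq2. With 1 library left out, 121, 7 and 30 ranged from 45 to 177, from 0 to 168 and from 1 to 73, lowest without the second 1 µg/ml library at 2 h and at 24 h and the first 10 µg/ml one at 48 h, and highest without the third 1 µg/ml library at 2 h and at 24 h and the second 10 µg/ml one at 48 h. At 100 µg/ml against the lower doses, 596, 2095, 2002 and 2149 genes at 2, 24, 48 and 72 h came down to 323, 1294, 1217 and 1405 without the third (2 and 24 h) or second (48 and 72 h) library of 100 µg/ml, and 340 for 72 h minus 24 h to 216 without the first at 24 h. Against untreated cells at 2 h, 887 at 1 µg/ml came down to 567 without the first untreated library and 744 at 100 µg/ml to 466 without the second. At 100 µg/ml against the lower doses at 2 h, 596 became 385 with only the libraries compared. Without the 9 columns, 1 µg/ml at 48 h keeps 1 library, so gene counts with that group are not given for that fit. The cause of the changes in counts was not tested. No paired analysis was possible because replicate numbers were given in accession order and pair no libraries. In the simulation, where few genes were changed, the test called 42% of 1.5-fold changes at 100 µg/ml and 72 h against untreated cells. That share is no estimate of power for the members.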
